A study of Homo sapiens with 20 samples.

Results

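The genes described here encode the nucleoporins, importins and exportins of K562 cells, measured with and without an intact NAT10 gene. They were chosen by symbol from the genes of the ribosome footprint tables: every symbol that starts with NUP and a digit, KPNA, KPNB, IPO and a digit, XPO or TNPO. That rule, which uses no measured value, takes 47 of 20401 genes, of which 23 are nucleoporins and 24 are karyopherins. K562 is an established human leukaemia line with erythroid features, and NAT10 is the enzyme that places N4-acetylcytidine (ac4C) on RNA. In the knockout (KO) cells exon 5 of NAT10 was removed by CRISPR-Cas9, and the parental K562 cells are the wild type (WT). The sources used here do not give the number of clones behind the knockout. RNA-seq and ribosome profiling (Ribo-seq, which counts RNA fragments held by ribosomes) had 2 KO and 2 WT libraries each. Immunoprecipitation with an ac4C antibody, immunoprecipitation with IgG and input RNA also had 2 libraries per genotype, and their replicates were merged before peaks were called. The labels do not say whether replicates came from separate cultures, so each p-value reflects only how much these libraries vary, and that variation may be technical.

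Nuclear pore complexes are built from nucleoporins. An outer Y-shaped ring, an inner ring and a membrane ring form the scaffold, and proteins rich in phenylalanine and glycine repeats fill the channel, the cytoplasmic filaments and the nuclear basket. Karyopherins carry cargo through that channel: importin alpha adaptors with KPNB1, the other importins and the transportins mostly bring proteins into the nucleus, while exportins carry proteins, tRNAs and microRNA precursors out. The GTPase RAN loads cargo onto exportins and releases it from importins inside the nucleus.

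RefSeq promoter sequences (build GRCh38.p14) are shown for the 5 genes that passed a test of KO against WT in RNA or in footprints, and for XPO1, the main exportin. Each line holds the 250 bases before the annotated start, 5′ to 3′ on the gene's strand. Capitals mark a CCAAT box (CCAAT, or ATTGG on the other strand) or an ETS motif (CCGGAAG, or CTTCCGG on the other strand).
NUP98, chr11:3797547-3797796, minus strand: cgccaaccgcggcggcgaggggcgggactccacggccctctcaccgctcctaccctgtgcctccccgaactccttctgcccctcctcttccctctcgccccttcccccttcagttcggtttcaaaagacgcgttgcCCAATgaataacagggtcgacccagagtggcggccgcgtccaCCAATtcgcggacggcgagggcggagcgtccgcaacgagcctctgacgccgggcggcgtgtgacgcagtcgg
IPO7, chr11:9384402-9384651, plus strand: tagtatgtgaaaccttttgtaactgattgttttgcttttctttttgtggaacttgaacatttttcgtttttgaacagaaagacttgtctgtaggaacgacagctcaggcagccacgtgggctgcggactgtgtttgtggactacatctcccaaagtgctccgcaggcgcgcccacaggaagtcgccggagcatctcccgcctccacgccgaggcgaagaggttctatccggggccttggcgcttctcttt
IPO5, chr13:97953425-97953674, plus strand: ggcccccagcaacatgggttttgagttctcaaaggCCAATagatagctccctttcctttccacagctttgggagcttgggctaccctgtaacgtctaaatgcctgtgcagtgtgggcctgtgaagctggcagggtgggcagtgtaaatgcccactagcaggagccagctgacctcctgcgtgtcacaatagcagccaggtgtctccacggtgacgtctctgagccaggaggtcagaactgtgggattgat
NUP210, chr3:13420323-13420572, minus strand: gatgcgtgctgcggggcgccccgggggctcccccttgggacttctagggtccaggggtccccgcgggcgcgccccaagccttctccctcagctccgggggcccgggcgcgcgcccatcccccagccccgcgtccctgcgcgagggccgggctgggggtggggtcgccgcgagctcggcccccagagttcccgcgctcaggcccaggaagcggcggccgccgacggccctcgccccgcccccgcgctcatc
XPOT, chr12:64404142-64404391, plus strand: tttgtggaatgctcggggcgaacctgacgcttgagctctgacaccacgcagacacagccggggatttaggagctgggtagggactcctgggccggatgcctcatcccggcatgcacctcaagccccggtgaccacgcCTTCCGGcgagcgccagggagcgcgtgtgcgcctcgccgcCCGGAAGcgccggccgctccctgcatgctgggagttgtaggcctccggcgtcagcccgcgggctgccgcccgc
XPO1, chr2:61538357-61538606, minus strand: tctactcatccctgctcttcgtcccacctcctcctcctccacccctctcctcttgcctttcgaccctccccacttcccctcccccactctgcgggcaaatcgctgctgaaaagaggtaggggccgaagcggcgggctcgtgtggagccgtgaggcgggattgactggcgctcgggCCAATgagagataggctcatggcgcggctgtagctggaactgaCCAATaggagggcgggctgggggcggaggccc
The NUP98 and XPO1 windows hold 2 CCAAT boxes each, the IPO5 window holds 1, and the XPOT window holds 2 ETS motifs. Neither motif is in the IPO7 and NUP210 windows. Of the 41 members with a RefSeq promoter, 20 (48.8%) held a CCAAT box, against 32.0% of 35116 promoters of all genes. An ETS motif was in 12 members' windows (29.3%), against 8.52% of all. TATAAA was in 2 members' windows (4.88%, against 10.7% of all). Median GC content was 62.4% in the members' windows and 58.0% in all. Each member counted with 1 window, while the windows of all genes were not limited to 1 per gene or to expressed genes. The 2 sets are therefore unlike, and enrichment was not tested. Matches on both strands were counted, the motifs were chosen by hand, and a match is not evidence that a factor binds.

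The targeted gene was lower in the KO libraries but not at 0. NAT10 RNA was 50.0 and 49.3 CPM (read counts scaled to a common library size with TMM, the trimmed mean of M-values) in KO cells, against 136 and 148 CPM in WT cells. Its log2 fold change was −1.51 ± 0.085 (SE, edgeR adjusted p = 0.000102), and in footprints −1.82 ± 0.19 (adjusted p = 0.000334). Counts cover the whole gene, so they do not show exon 5 itself. RNA totals were 18093324 and 18778485 counts in KO libraries, against 10388717 and 12725302 in WT libraries. Footprint totals were 1173526 and 621287 in KO libraries, against 1220308 and 911336 in WT libraries. The 2 KO RNA libraries differed by only 2.99% more than counting noise (chi-square per degree of freedom 1.03, against 12.5 for the WT pair), and they were therefore summed and counted as 1 sample. All 10 erythroid and progenitor markers of K562 were at 1 CPM or more in every RNA library, with a sum of 1832 to 1849 CPM in KO and 1655 to 1685 CPM in WT. Summed markers of other cell types were low: 36.5 to 40.7 CPM in KO and 49.2 to 49.5 CPM in WT for T lymphocytes, 3.32 to 3.68 and 5.41 to 5.94 CPM for B lymphocytes, 2.10 to 2.51 and 2.74 to 3.55 CPM for fibroblasts, and 31.6 to 35.3 and 42.0 to 48.3 CPM for epithelium. Their part in the results was not tested.

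Of the 47 members, 45 had enough RNA counts to be tested and 44 had enough footprints. KPNA7, an importin alpha known from oocytes and embryos, and NUP210L, a testis form of NUP210, had 0 to 3 RNA counts in every library. Neither had a footprint count, which allows a level of up to 2.56 and 4.83 CPM in the KO libraries and 2.46 and 3.29 CPM in the WT libraries (3 counts each, counting error only). NUP50, a nuclear basket protein, was also untested in footprints. The members together took 0.819% and 0.820% of RNA counts in KO libraries, against 0.829% and 0.841% in WT libraries. In footprints their share was 0.943% and 0.889% in KO libraries, against 0.868% and 0.826% in WT libraries.

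In RNA, 3 of the 45 tested members passed an adjusted p of 0.05, all 3 lower in KO: IPO7, NUP98 and IPO5. Over all 16277 genes tested 14.0% passed, 5.17% higher and 8.79% lower in KO, against 3 of 45 here. With the KO RNA libraries kept apart as 2 samples 16 members passed, against 34.1% of 16040 genes. Both KO libraries lay above both WT libraries for 18 of the 45 members, against 33.4% of all genes, and below them for 12, against 35.2%. In footprints 2 of 44 passed, NUP210 lower and XPOT higher, against 5.34% of 8887 genes (1.47% higher, 3.87% lower). There 29 of 44 log2 fold changes were above 0, against 50.5% of all genes. Both KO libraries lay above both WT libraries for 15 members (25.3% of all genes) and below them for 8 (26.2% of all genes). In translational efficiency, the change in footprints beyond the change in RNA, 0 of 45 passed in edgeR, against 0.00971% of 10299 genes. For efficiency, 6 members had an unadjusted p under 0.05, against 10.1% of all genes, and DESeq2 called 1 member, NUP210.

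**Figure D1:**
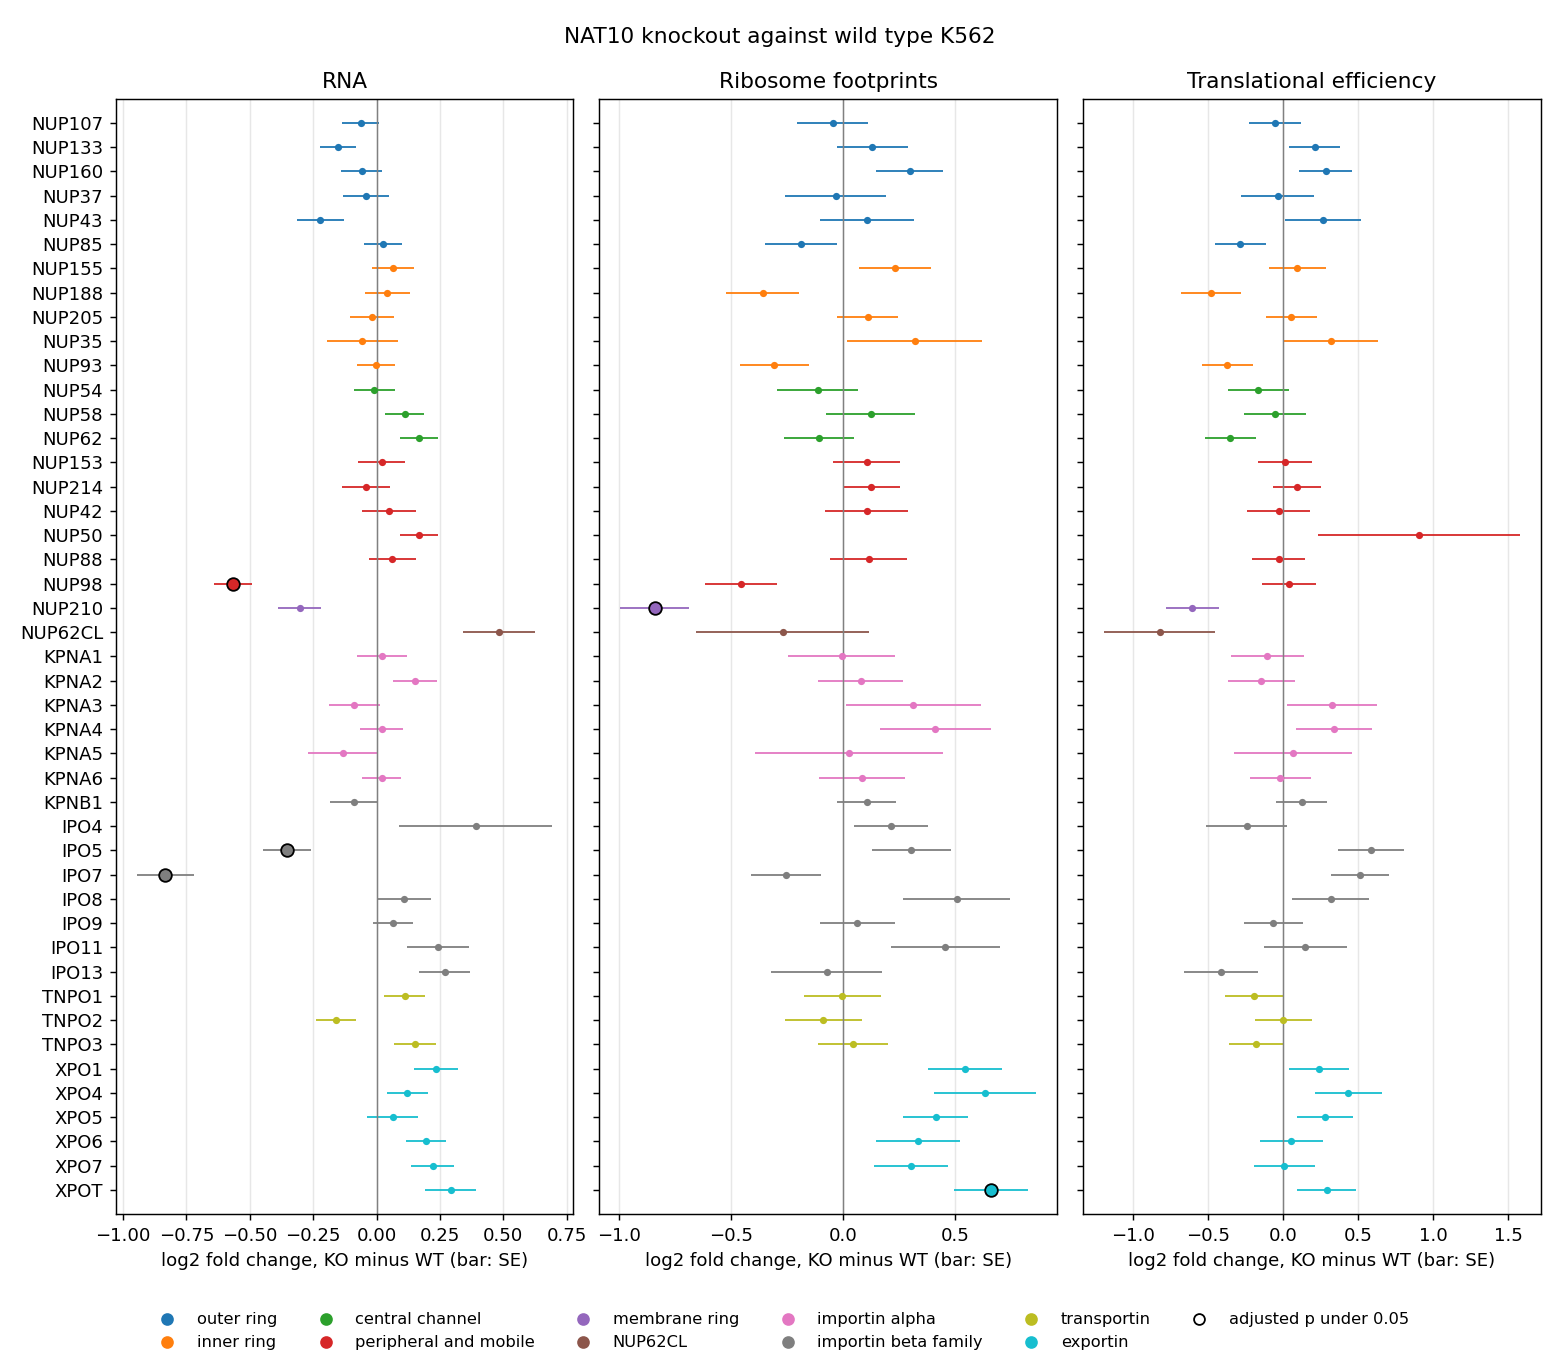
Log2 fold change (KO minus WT, horizontal axis) of each tested member in RNA, ribosome footprints and translational efficiency, coloured by class. Bars are standard errors and black outlines mark an adjusted p under 0.05. All 6 exportins at the bottom lie right of 0 in each panel, while NUP98 and IPO7 lie left of 0 in RNA and in footprints.

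The exportins were the only class of 2 or more tested genes whose members lay on the same side in RNA, footprints and efficiency. In footprints, both KO libraries were above both WT libraries for 6 of 6 exportins, a pattern that 25.3% of all tested genes showed. Their log2 fold changes ran between 0.30 and 0.66 with a median of 0.48, against 0.00 for all genes, and 1 of the 6 passed the test. In RNA the 6 values were also above 0, as were 49.9% of all genes. They lay between 0.06 and 0.29 with a median of 0.21, and none passed. Efficiency values ran between 0.01 and 0.44 with a median of 0.26, against 44.1% of all genes above 0. None passed, and 1 exportin was below 0 with no low-count filter and in 4 of the 8 settings that leave out a library. The summed level of the 5 exportins other than XPOT was 1281 and 1232 CPM of footprints in KO libraries, against 981 and 905 CPM in WT libraries. In RNA the same sum was 1308 and 1318 CPM in KO libraries, against 1131 and 1191 CPM in WT libraries.

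XPOT exports mature tRNAs, and it was the exportin that passed the test in footprints. Its footprints were 209 and 216 CPM in KO libraries (245 and 134 counts), against 144 and 123 CPM in WT libraries (172 and 110 counts). The groups did not overlap, and the log2 fold change was 0.66 ± 0.165 (SE, edgeR adjusted p = 0.0389). That call did not hold with DESeq2 (adjusted p = 0.149) or without either WT library (adjusted p = 0.0894 without replicate 1 and 0.231 without replicate 2). XPOT RNA was 550 and 552 CPM in KO libraries, against 427 and 477 CPM in WT libraries. The KO values were the higher ones, but the RNA log2 fold change of 0.29 ± 0.101 did not pass (adjusted p = 0.0976).

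XPO1, also called CRM1, exports proteins with leucine-rich signals and several RNA complexes. Its footprints were 334 and 282 CPM in KO libraries, against 233 and 191 CPM in WT libraries, a log2 fold change of 0.54 ± 0.166 (SE, adjusted p = 0.0796). Its RNA was 420 and 421 CPM in KO libraries, against 361 and 358 CPM in WT libraries (log2 fold change 0.23, adjusted p = 0.112). Both KO libraries lay above both WT libraries in each assay, and neither difference passed.

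XPO4, which carries the translation factor eIF5A and SMAD3, had 59.6 and 62.8 CPM of footprints in KO libraries, against 40.2 and 38.1 CPM in WT libraries. Its log2 fold change was 0.63 ± 0.228 (SE, adjusted p = 0.132). XPO5, the exporter of microRNA precursors, had 403 and 395 CPM in KO libraries, against 284 and 316 CPM in WT libraries (log2 fold change 0.41, adjusted p = 0.121). Footprints of XPO6, the exporter of actin with profilin, were 127 and 167 CPM in KO libraries, against 109 and 121 CPM in WT libraries, and those of XPO7, a receptor of broad cargo range studied in erythroid nuclei, were 358 and 325 CPM, against 314 and 239 CPM. These 4 genes also did not overlap between genotypes in footprints, and none passed the test. In RNA, XPO5 is the exportin whose groups overlapped, with 240 and 241 CPM in KO libraries, against 215 and 248 CPM in WT libraries.

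**Figure D2:**
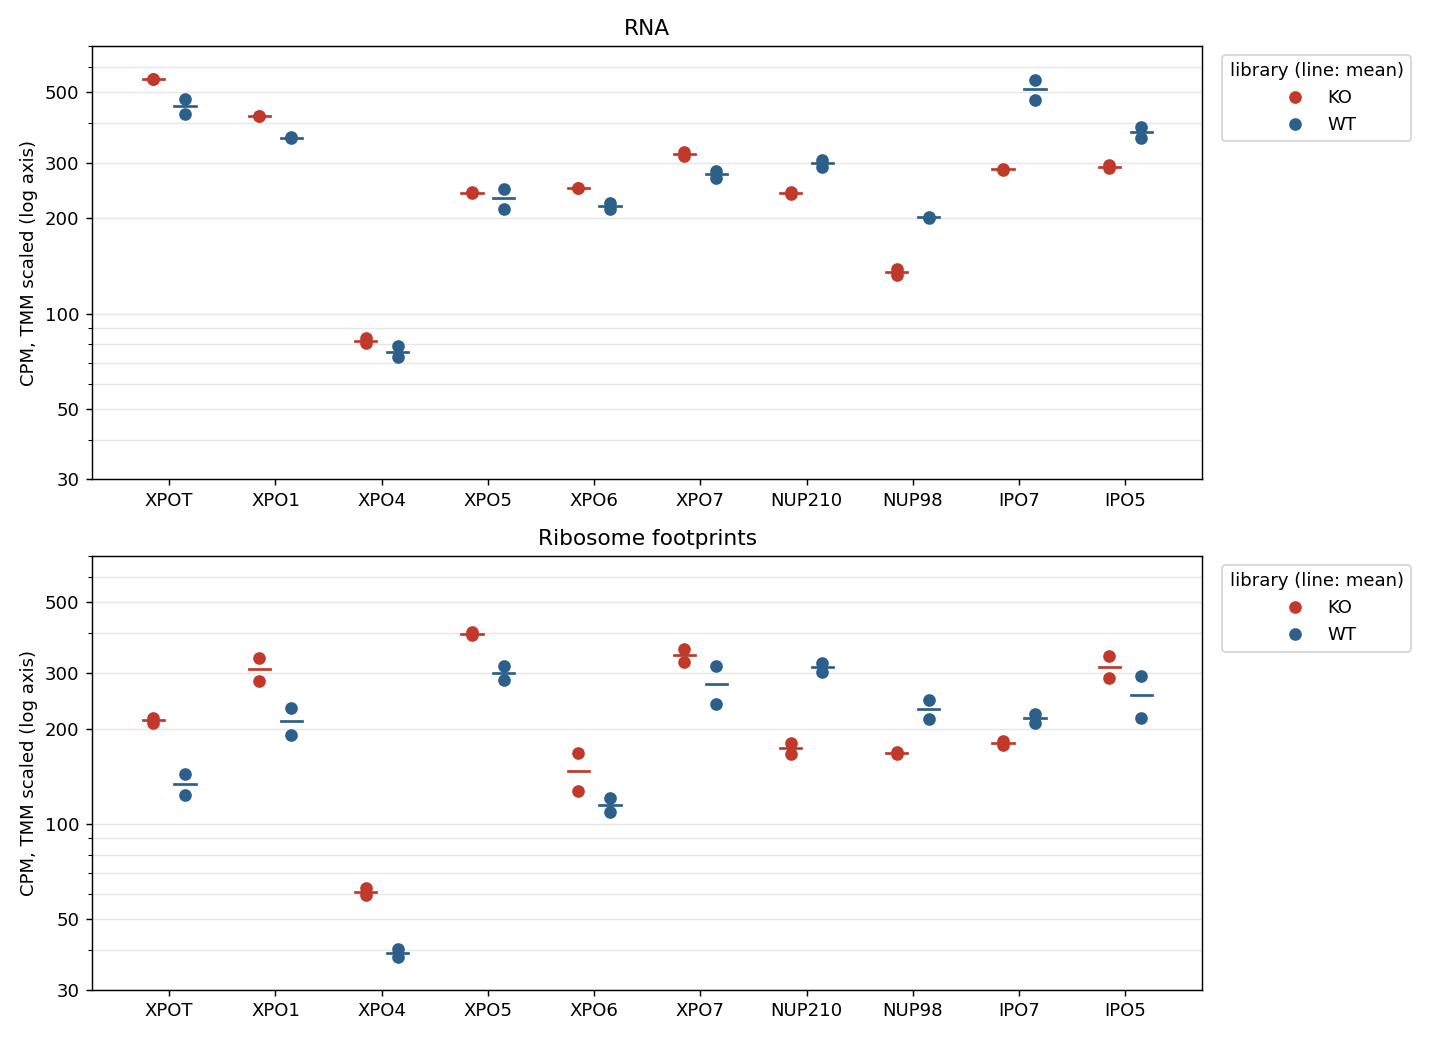
CPM of each library (log axis, TMM scaled) for the 6 exportins, NUP210, NUP98, IPO7 and IPO5, in RNA above and in ribosome footprints below. Each point is a library, short lines are means, KO points stand left of WT points. In footprints all KO points of the exportins lie above the WT points of the same gene, and NUP210 shows the reverse.

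Among the nucleoporins, NUP210 footprints fell. NUP210 is a glycoprotein of the pore membrane with large parts in the lumen of the nuclear envelope, and it is known from myogenic and immune cell differentiation. Its footprints were 180 and 166 CPM in KO libraries (212 and 103 counts), against 302 and 322 CPM in WT libraries (360 and 287 counts). The groups lay far apart, with a log2 fold change of −0.84 ± 0.154 (SE, adjusted p = 0.00901), a level in KO that was 0.559 of that in WT. NUP210 RNA was 240 and 241 CPM in KO libraries, against 305 and 291 CPM in WT libraries, and its log2 fold change of −0.30 ± 0.0849 just missed the threshold (adjusted p = 0.0523). Footprint CPM per RNA CPM was 0.754 and 0.687 in KO libraries, against 0.989 and 1.10 in WT libraries. The efficiency log2 fold change of −0.60 ± 0.177 had an unadjusted p of 0.00438 and an adjusted p of 0.444.

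NUP98 RNA fell. NUP98 is a mobile nucleoporin with glycine-leucine-phenylalanine-glycine repeats, and it is a frequent partner in leukaemia gene fusions. Its RNA was 133 and 138 CPM in KO libraries, against 201 and 202 CPM in WT libraries, a log2 fold change of −0.56 ± 0.0751 (SE, adjusted p = 0.00304). Its footprints were 166 and 169 CPM in KO libraries, against 214 and 247 CPM in WT libraries, with no overlap and a log2 fold change of −0.46 that did not pass (adjusted p = 0.126). The gene also encodes NUP96, an outer ring protein cut from the same precursor, and gene counts do not separate the products.

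No member placed in the outer ring or inner ring class passed in RNA or footprints. NUP98, which also encodes NUP96, was placed with the peripheral and mobile genes, and the outer ring gene SEC13 lies outside the symbol rule. The 6 outer ring genes had log2 fold changes between −0.22 and 0.02 in RNA, and the 5 inner ring genes between −0.06 and 0.07. In footprints the 2 inner ring scaffold genes NUP188 and NUP93 were lower in both KO libraries. NUP188 had 243 and 308 CPM of footprints in KO libraries, against 329 and 371 CPM in WT libraries (log2 fold change −0.36, adjusted p = 0.23). Its efficiency log2 fold change was −0.48 ± 0.2 (SE, unadjusted p = 0.0309, adjusted p = 0.479). NUP93 had 200 and 184 CPM in KO libraries, against 234 and 243 CPM in WT libraries (log2 fold change −0.31, adjusted p = 0.282). NUP205, the close partner of NUP93 in that ring, had 501 and 502 CPM in KO libraries, against 447 and 483 CPM in WT libraries (log2 fold change 0.11). Subunits of the inner ring therefore did not lie on the same side, and none of these differences passed.

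The 3 central channel genes NUP54, NUP58 and NUP62 had RNA log2 fold changes of −0.01, 0.11 and 0.17 and footprint values of −0.11, 0.12 and −0.11. NUP62CL, an X-linked gene named for its likeness to NUP62, had 21.7 and 22.0 CPM of RNA in KO libraries, against 14.9 and 16.5 CPM in WT libraries (log2 fold change 0.48, adjusted p = 0.0618). Its footprints went the other way, with 14.5 and 12.9 CPM in KO libraries, against 17.6 and 15.7 CPM in WT libraries. The efficiency value of NUP62CL was −0.82 ± 0.371 (SE, unadjusted p = 0.0447, adjusted p = 0.492), from 17 and 8 footprint counts in KO libraries and 21 and 14 in WT libraries. Of the cytoplasmic filament and basket genes, NUP214, NUP88, NUP42 and NUP153 had RNA values between −0.04 and 0.06 and footprint values between 0.10 and 0.13.

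NUP50, a basket protein that aids importin alpha recycling, had many RNA counts and few footprints. Its RNA was 131 and 126 CPM in KO libraries, against 111 and 119 CPM in WT libraries, while its footprints were 18 and 3 counts in KO libraries and 10 and 1 in WT libraries. IPO4, which imports histones and ribosomal proteins, showed the reverse. It had 3.10 and 3.68 CPM of RNA in KO libraries, against 2.26 and 2.91 CPM in WT libraries, but 198 and 205 CPM of footprints in KO libraries, against 159 and 190 CPM in WT libraries. Footprint CPM per RNA CPM of IPO4 was thus 64.0 and 55.6 in KO libraries and 70.3 and 65.2 in WT libraries, while 43 other members lay between 0.258 and 3.54. For NUP50 the ratio was 0.117 and 0.0382 in KO libraries and 0.0755 and 0.00942 in WT libraries, which overlap. Its efficiency log2 fold change of 0.90 ± 0.673 (SE) did not pass (adjusted p = 0.687), and without footprint KO replicate 1 it was −0.39. The cause of these ratios was not tested.

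IPO7 had the largest RNA difference among the tested importins, and it fell. IPO7 imports ribosomal proteins, histone H1 and SMADs, and it can pair with KPNB1. Its RNA was 284 and 286 CPM in KO libraries, against 474 and 548 CPM in WT libraries. The KO level was 0.561 of the WT level, a log2 fold change of −0.83 ± 0.113 (SE, adjusted p = 0.00321). Its footprints were 183 and 177 CPM in KO libraries, against 209 and 222 CPM in WT libraries, and the log2 fold change of −0.25 ± 0.156 did not pass (adjusted p = 0.374). Footprint CPM per RNA CPM was 0.645 and 0.619 in KO libraries, against 0.441 and 0.405 in WT libraries, with an efficiency value of 0.51 ± 0.193 (unadjusted p = 0.0196, adjusted p = 0.458).

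IPO5, an importer of ribosomal proteins and histones, fell in RNA to 295 and 287 CPM in KO libraries, against 358 and 389 CPM in WT libraries. The log2 fold change was −0.35 ± 0.0938 (SE, adjusted p = 0.0438), and the call was lost without KO replicate 2 (adjusted p = 0.0544). IPO5 footprints overlapped between genotypes, at 339 and 288 CPM in KO libraries and 293 and 215 CPM in WT libraries. Its efficiency value was 0.59 ± 0.221 (unadjusted p = 0.0192, adjusted p = 0.458). IPO13, which imports some cargo and exports eIF1A, had RNA of 52.2 and 50.9 CPM in KO libraries, against 41.2 and 44.7 CPM in WT libraries (log2 fold change 0.27, adjusted p = 0.122).

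The main import receptors did not pass in RNA or footprints. KPNB1, the importin beta that works with importin alpha, had 632 and 640 CPM of RNA in KO libraries, against 669 and 690 CPM in WT libraries (log2 fold change −0.09), and a footprint log2 fold change of 0.11. KPNA2, an importin alpha of proliferating cells, had 163 and 163 CPM of RNA in KO libraries, against 139 and 156 CPM in WT libraries (log2 fold change 0.15), and 0.08 in footprints. TNPO1, which imports RNA-binding proteins such as hnRNP A1, and TNPO3, which imports serine-arginine splicing factors, had RNA values of 0.11 and 0.15 and footprint values of 0.00 and 0.04. The other importin alpha genes KPNA1, KPNA3, KPNA4, KPNA5 and KPNA6 had RNA values between −0.13 and 0.02, and none passed. KPNA4 footprints were 71.5 and 64.4 CPM in KO libraries, against 41.9 and 62.8 CPM in WT libraries (log2 fold change 0.41, adjusted p = 0.36), so its groups did not overlap, with the 2 WT libraries far apart. IPO8, a close relative of IPO7 that binds Argonaute proteins in human cells, had 70.7 and 70.9 CPM of footprints in KO libraries, against 57.8 and 40.4 CPM in WT libraries (log2 fold change 0.51, adjusted p = 0.249). IPO11, which imports ubiquitin-conjugating enzymes, had 107 and 80.5 CPM in KO libraries and 83.8 and 53.8 CPM in WT libraries, and these overlapped. Reads of genes with processed pseudogene copies, such as KPNA2, NUP50, XPOT and TNPO1, may be divided in a way the sources used here do not state. Strand in counting is not stated either, so genes with an antisense partner, such as NUP153 and IPO9, carry that limit.

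Over the 44 members tested in both assays, RNA and footprint log2 fold changes correlated with Pearson's r = 0.40 and Spearman's rho = 0.30 across genes, and 27 had the same sign. Without NUP98 and IPO7 the values were 0.26 and 0.21 over 42 genes. Genes are not independent replicates, so these describe the members only.

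NUP98 and IPO7 both lie on the short arm of chromosome 11 on the side of NAT10 toward the chromosome tip, with 260 and 122 protein-coding genes between them and NAT10 (gene order from RefSeq). On that side, leaving out the beta-globin genes and the members, 104 of 171 tested genes (60.8%) passed the RNA test as lower in KO, and the median log2 fold change of the 171 was −0.58. Among the other placed protein-coding genes 10.2% passed as lower, and the median of all of them was −0.01. Of the tested genes among the 10 coding neighbours on each side, 7 of 11 around NUP98 passed as lower in RNA (median of the 11, −0.66), and 10 of 15 around IPO7 (median of the 15, −0.70). In footprints 27 of the 122 tested tip-side genes passed as lower (22.1%), and the median of the 122 was −0.60. Among the 8672 other placed protein-coding genes tested in footprints 3.64% passed as lower, and their median was 0.01. NUP160, an outer ring gene on the centromere side of NAT10, had RNA of 179 and 173 CPM in KO libraries, against 177 and 192 CPM in WT libraries, and the median of its 8 tested neighbours was 0.07. A change of NUP98 and IPO7 of their own and a change of the whole chromosome segment cannot be told apart here.

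Related genes outside the symbol rule were counted from lists written by hand. Over all genes 5.17% passed higher and 8.79% lower in RNA. Of 6 genes of the RAN cycle, RAN itself rose in RNA, at 645 and 648 CPM in KO libraries, against 491 and 508 CPM in WT libraries (log2 fold change 0.38, adjusted p = 0.03). Of 11 pore proteins with other names, SEC13, an outer ring subunit shared with COPII vesicle coats, rose in RNA (0.33, adjusted p = 0.02). THOC6, a subunit of the THO complex of mRNA export, was the gene called among 18 of that list (0.43, adjusted p = 0.0275). No gene of these lists passed lower in RNA, and none passed in footprints or efficiency. CSE1L, the exportin that returns importin alpha to the cytoplasm, had 455 and 404 CPM of footprints in KO libraries, against 336 and 292 CPM in WT libraries (log2 fold change 0.45, adjusted p = 0.101). Among the 4 karyopherins and adaptors outside the rule the median was 0.63 in footprints (0.00 over all genes), with RANBP6 at 1.11 (adjusted p = 0.207), and none passed.

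Peaks of the ac4C antibody over input and peaks of IgG over input were listed once for each genotype, on transcripts rather than on the genome, and the fold values are the authors' own. There is no replicate check of any peak, and the read depth behind the lists is unknown here. Of the 45 members tested in RNA, 44 (97.8%) had an ac4C antibody peak in KO, and 44 had an IgG peak there. In WT, 42 (93.3%) had an ac4C antibody peak and 43 (95.6%) an IgG peak. Among all tested protein-coding genes those shares were 78.4% and 75.9% in KO and 63.6% and 64.5% in WT. Most of the nuclear transport genes thus had peaks with either antibody, also in cells that lack exon 5 of NAT10. The members and all tested protein-coding genes were not matched for RNA level.

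For most members the ac4C antibody and IgG lists covered much the same stretches of RNA. Here and below, the longest coding transcript of a member is the longest one with a peak in any list. On that transcript, the median share of the ac4C antibody coverage that was also under an IgG peak was 89.4% in KO and 99.9% in WT. It was 80% or more for 28 of 41 members in KO and 35 of 40 in WT. It was under 50% for NUP88, IPO11, NUP85, IPO8 and NUP93 in KO, with NUP88 at 0, and for XPO4 in WT, also at 0. IPO7, on a transcript of 6162 bases, was covered over 91.9% of its length by ac4C antibody peaks and over 99.3% by IgG peaks in KO, and over 96.3% and 97.7% in WT. NUP210 (7206 bases) was covered over 98.9% and 98.8% in KO and over 97.9% and 97.9% in WT. Such peaks span the transcript and mark no single site. NUP98 (7023 bases) had separate blocks, covering 55.4% with the ac4C antibody and 57.5% with IgG in KO, and 40.8% and 28.8% in WT.

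**Figure D3:**
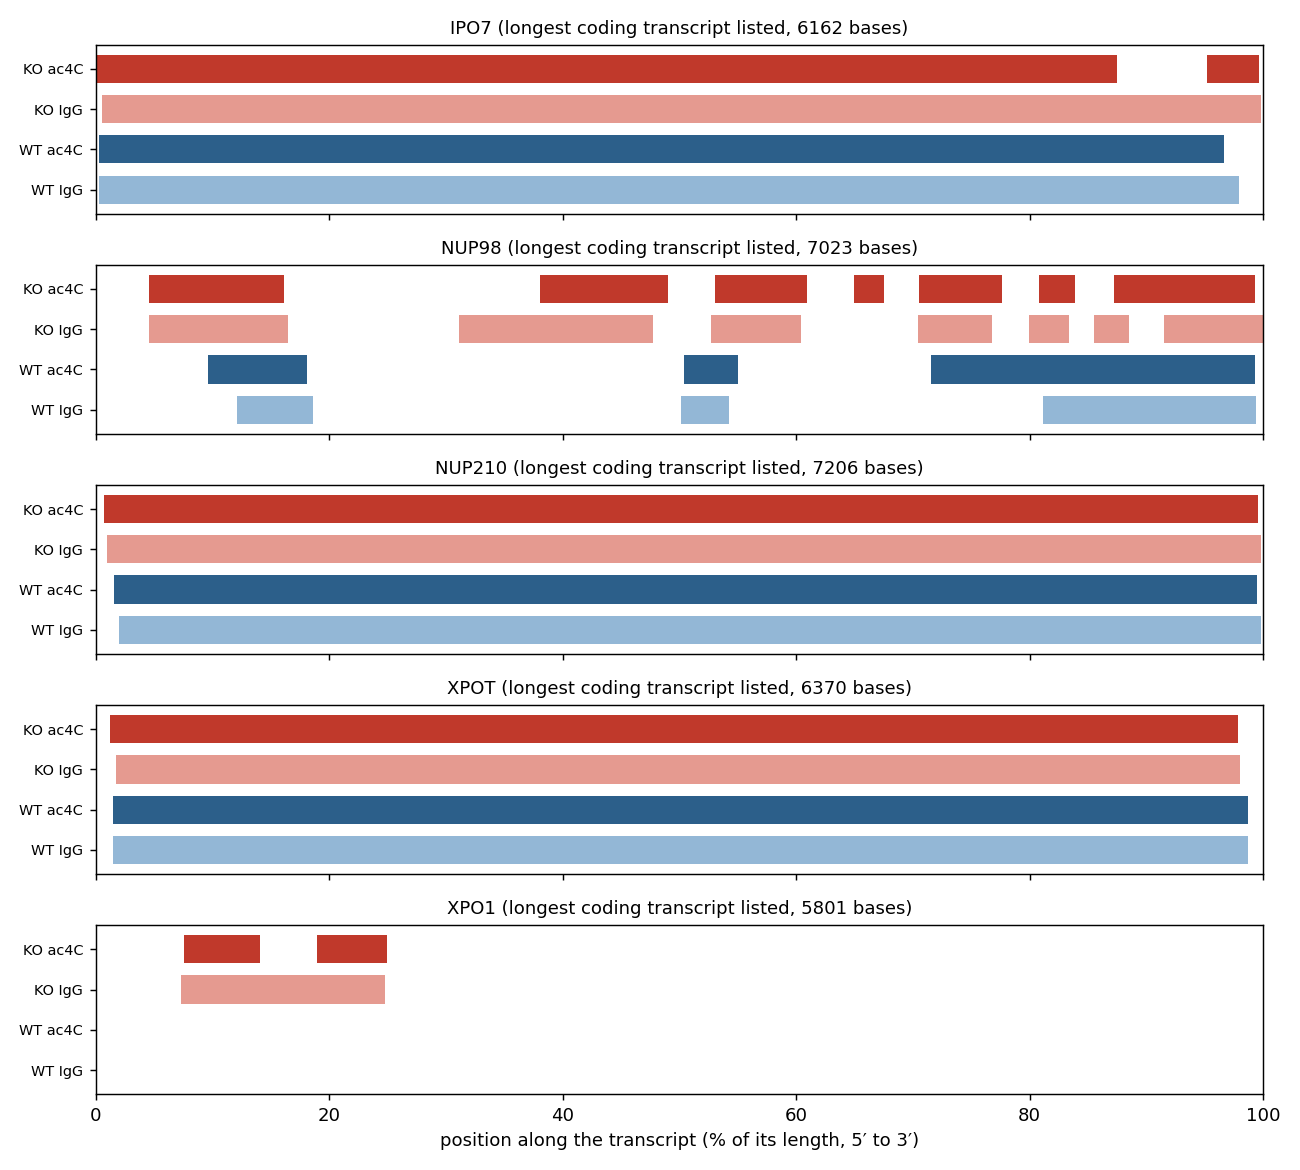
Merged peak regions on the longest coding transcript of IPO7, NUP98, NUP210, XPOT and XPO1, along the percent of transcript length from 5′ to 3′. Rows are the ac4C antibody and IgG lists of KO and of WT. Regions of the 2 antibodies nearly coincide within a genotype on NUP210 and XPOT and overlap only in part on NUP98, and XPO1 has no region in the WT rows on this transcript.

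Peak height was also close between the antibodies in WT, and less so for some members in KO. On the longest coding transcript, the highest fold over input of IPO7 was 36.2 with the ac4C antibody and 36.0 with IgG in KO, and 22.0 and 24.1 in WT. XPOT had 36.4 and 39.4 in KO and 27.4 and 28.4 in WT, and NUP210 had 29.6 and 24.9 in KO and 22.4 and 22.2 in WT. KPNB1 had 37.6 with the ac4C antibody and 59.1 with IgG in KO, and 20.5 and 20.3 in WT, while over all its transcripts the values were 46.8 and 59.1 in KO and 20.5 and 21.8 in WT. Across members with both peaks, the log2 folds of the antibodies correlated with r = 0.94 over 41 genes in KO and 0.99 over 39 genes in WT, a description of values that share their input libraries. The ac4C antibody fold was the higher one in 24 of 41 members in KO and in 15 of 39 in WT. The median ratio of ac4C antibody fold to IgG fold was 1.05 in KO (range 0.54 to 1.82) and 0.98 in WT (range 0.75 to 1.18). The KO lists hold 162944 and 147469 peaks and the WT lists 92194 and 93329, so heights and counts are not compared between genotypes.

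**Figure D4:**
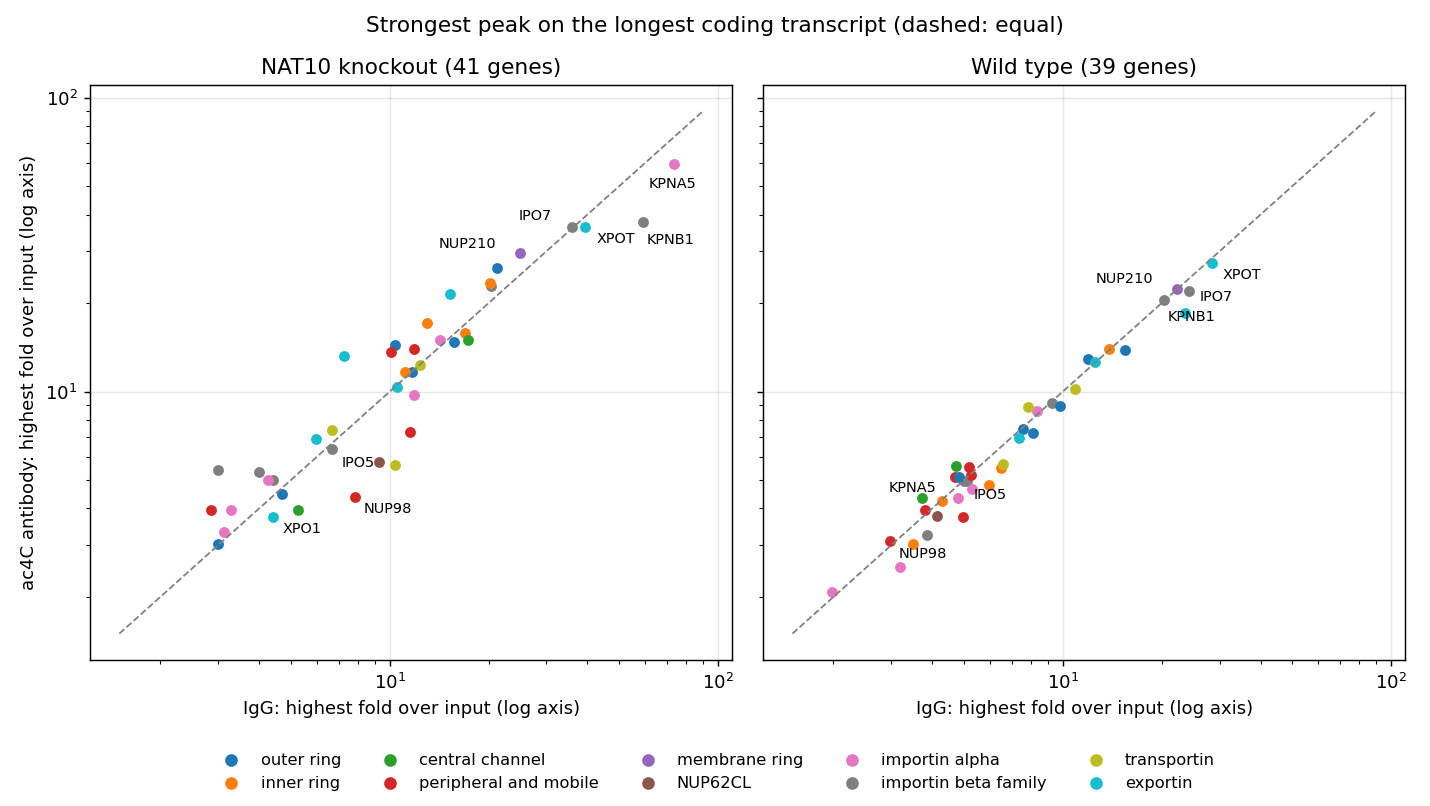
Highest fold over input of each member's longest coding transcript with the ac4C antibody (vertical, log axis) against IgG (horizontal, log axis), in KO on the left and WT on the right, coloured by class. The dashed line marks equal fold. Points lie along it in both genotypes, with 24 of 41 above it in KO and 15 of 39 in WT.

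Along the longest coding transcript, the highest summit of the ac4C antibody lay in the 5′ part for 15 members, in the middle part for 13 and in the 3′ part for 13 in KO (the length cut in 3 equal parts), and for 7, 12 and 21 members in WT. With IgG the counts were 11, 10 and 21 in KO and 10, 8 and 22 in WT. The 2 antibodies' highest summits lay within 100 bases of each other on 20 of 41 members in KO and on 26 of 39 in WT. On NUP98 in KO, for example, the ac4C antibody summit stood at 56.1% of the transcript with a fold of 4.38, and the IgG summit at 98.5% with a fold of 7.83.

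Peaks of the ac4C antibody that no IgG peak overlapped were found in 23 of 45 members in KO (51.1%, against 41.7% of tested protein-coding genes) and in 9 of 45 in WT (20.0%, against 14.1%). The WT genes were KPNA1, NUP155, NUP160, NUP188, NUP35, NUP98, TNPO1, XPO4 and XPO7. The reverse case, an IgG peak with no overlapping ac4C antibody peak, was found in 21 members in KO (46.7%, against 27.8%) and 13 in WT (28.9%, against 15.1%). Unshared ac4C antibody regions were weak, with a median fold over input of 2.82 over 93 regions in KO and 2.24 over 10 regions in WT. The unshared IgG regions had medians of 2.99 over 52 regions in KO and 2.11 over 17 regions in WT. XPO1 had ac4C antibody peaks on 18 transcripts in the KO list and on 2 in the WT list, and IgG peaks on the same numbers. KPNA4 was listed with peaks in the KO lists alone. As the KO lists are longer, neither is read as a difference between genotypes. IPO4 had no peak in any of the 4 lists.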

How the data were processed

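RNA-seq and Ribo-seq tables hold raw read counts per gene, deposited by the authors. The submitters' processing notes name Trimmomatic, cutadapt, STAR, Bowtie2, featureCounts, SAMtools, bedtools, MACS2, ChIPseeker and DESeq2 and build GRCh38.p13, with no role or order. The deposited peak lists are in transcript coordinates and give a fold ratio over input, a score, and −log10 p and q per peak, with replicates merged by the authors before calling, per the labels. No source used here gives the handling of strand or of reads with several matches.

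Counts were filtered with filterByExpr, scaled by TMM and tested with edgeR 4.0.16 in R 4.3.3 (quasi-likelihood, genotype term, Benjamini-Hochberg over all genes tested, threshold 0.05). Efficiency was the assay by genotype interaction in a model over both assays. The RNA fit has 1 residual degree of freedom, and the summed KO sample is assumed to vary like WT. The biological coefficient of variation was 9.12% in RNA and 12.0% in footprints. DESeq2 1.42.0, RLE scaling, no filter, separate KO libraries, a replicate block and left-out replicates were the alternatives for counts, and overlap, threshold and transcript type those for peaks. The steps were tried on simulated counts whose planted changes were larger than the member changes described here. That trial does not show how well such smaller changes are found. A peak counted as shared at an overlap of 1 base.

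Genes given in full were those that passed a test, the 3 largest changes in each direction with mean log2 CPM of at least 3, members on chromosome 11 beside NAT10, and the main receptors; others chosen for their class are named after their values were seen. Members and lists were chosen with earlier results of these data known. Signal tracks were not used here.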

Additional observations from a re-analysis of the deposited data

How the results depend on the processing

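The count of members called in RNA was 3, where 14.0% of all genes passed. It was also 3 with RLE scaling (13.8% of all) and with DESeq2 (6.40% of all), so the members' share was near that of all genes with DESeq2. It was 16 with the KO libraries kept apart (34.1% of all genes passed), 15 with the KO libraries kept apart and a replicate block (31.1% of all), 10 with no low-count filter (9.51% of all; the median of all genes moved to 0.06), and 2 to 3 when each KO library was left out in turn. The gain with the KO libraries kept apart includes 4 exportins, called higher in a fit where 34.1% of all genes passed in either direction. That fit counts 2 libraries that differ by about counting noise as separate samples. No exportin passed in RNA in the main test. In footprints the count of 2 was 1 with DESeq2 (2.00% of all genes), 7 with the replicate block (17.9% of all) and 1 to 3 with a library left out. In efficiency the count of 0 was 1 with DESeq2 (0.233% of all genes), 3 with the KO libraries kept apart and the replicate block (IPO5, IPO7 and NUP210; 2.29% of all), and 0 to 0 with a library left out. Same-numbered libraries deviated together with r = −0.01 in RNA and 0.23 in footprints over 2 pairs. The KO RNA libraries differed by little more than counting noise, so the RNA value cannot show whether libraries are paired. The footprint value does not settle it either. The main fits used no pairing because the labels do not say that the numbers pair libraries. Peak counts stayed within 1.5 times of 23 in KO and 9 in WT under each of the 3 peak settings.

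Exportin footprint values stayed above 0 for 6 of 6 genes in every setting. In RNA, 5 of 6 stayed above 0 without WT replicate 1.

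Values near 0 changed sign. NUP160 RNA was 0.013 with no filter. In footprints KPNA2 was −0.085 without KO replicate 1 and −0.13 without WT replicate 2, within a leave-out range of −0.13 to 0.34. TNPO1 footprints were 0.0026 with RLE scaling, 0.0096 with DESeq2, 0.17 without KO replicate 1 and 0.035 without WT replicate 2 (range −0.15 to 0.17). TNPO3 footprints were −0.041 without KO replicate 1 and −0.047 without WT replicate 2 (range −0.047 to 0.14). In efficiency, without footprint KO replicate 2 and footprint WT replicate 1, KPNA2 was 0.090 and 0.25, and TNPO3 was 0.013 and 0.054. Without footprint KO replicate 1, KPNB1 was −0.0046. NUP98 efficiency was −0.0080 with no filter. NUP50 efficiency, which is not near 0 (0.90), was −0.39 without footprint KO replicate 1. The cause of these changes was not tested. Leaving out a WT RNA library leaves no residual degrees of freedom, so those RNA values carry no test. The smallest footprint library holds 621287 counts, which limits genes such as NUP62CL and NUP50.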
